A study of Rattus norvegicus with 2 samples.

Results

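Chad-high chondrocytes are the cells of rat cartilage that carried RNA of type II collagen and of chondroadherin together, without much RNA of type I collagen. They were chosen by measured values: CPM (the UMIs of a gene per 1000000 UMIs of the cell, where a UMI tags 1 captured RNA molecule) of at least 1000 for Col2a1, at least 1000 for Chad and under 10000 for Col1a1. Of 13751 cells kept in 2 single-cell libraries, 274 met the rule. The first library came from untreated Lewis rats, named sham in the series' design text, and held 264 of them among 5347 cells (4.94%, exact Clopper-Pearson 95% interval 4.37 to 5.55%). The second came from Lewis rats with collagen-induced arthritis (CIA), immunised with type II collagen plus complete Freund's adjuvant and taken on day 14, and held 10 among 8404 cells (0.119%, 0.0571 to 0.219%). The labels give the tissue as cartilage, without the joint, and the number of animals per library was not given in the sources used here. With 1 library per group no test between the conditions is possible, and fewer chondrocytes in the tissue and fewer recovered from it cannot be told apart. The share also depends on the Chad and Col1a1 RNA of cells with Col2a1 and on the number of other cells captured. Of the cells at the Col2a1 limit, 264 of 343 control and 10 of 44 CIA cells met the rule. What lay behind the difference was not tested. All intervals below are 95% intervals for counting error alone, since cells of 1 library are not replicates, and all comparisons below were made within the control library.

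Chondrocytes are the resident cells of cartilage and make its matrix of type II, IX and XI collagen fibrils filled with the proteoglycan aggrecan. Chondroadherin is a leucine-rich protein of that matrix that binds collagen and cell-surface integrins. In articular cartilage the cells at the surface secrete lubricin, the product of Prg4, which keeps the joint surface slippery, while cells in the deepest layer are known for genes of mineral formation such as Alpl and Ibsp. Fibroblasts of the synovial lining also make lubricin.

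The limits of the rule fell in thinly filled ranges. The Chad-high chondrocytes nearest to the Chad limit had 1006, 1152 and 1153 CPM, and the nearest cells that failed on Chad alone, 17 in all, had 808, 581 and 410 CPM. For Col2a1 the nearest values were 1025, 1096 and 1099 CPM inside and 823, 455 and 412 CPM outside, where 18 cells failed on that gene alone. For Col1a1 the nearest values were 9966, 9889 and 9345 CPM inside and 12120, 18707 and 21203 CPM outside, where 11 cells failed on that gene alone. A further 51 cells had Col2a1 but failed on both Chad and Col1a1. The cells carried a median of 8100 UMIs (5178 to 36150) and 1966 genes, against 12144 UMIs and 2807 genes in the other kept control cells, and a median of 3.88% mitochondrial UMIs against 5.90%. Of the barcodes, 52 occurred in both libraries, 2 of them among the control Chad-high chondrocytes.

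The label was checked against chondrocyte genes that the rule did not use, and they were found in most of the cells. Snorc, a small transmembrane proteoglycan of chondrocytes, had a UMI in 97.7% of the 264 cells, Clec3a, a cartilage lectin, in 99.6%, and Cytl1, a small secreted protein of chondrocytes, in 80.3%. Free RNA in the droplets can give UMIs to any cell, so the same shares were taken in 506 endothelial cells of the control library. These should lack the genes and were deeper (median 14086 UMIs). They were limited to under 1000 CPM of Col2a1, a gene of the rule, which can lower their values for other cartilage genes. In the endothelial cells the shares were 16.8% for Snorc, 24.1% for Clec3a and 15.6% for Cytl1. With every cell thinned to 5000 UMIs the shares were 97.3%, 97.7% and 75.4% in the chondrocytes and 4.94%, 9.49% and 5.14% in the endothelial cells. Sox9, the transcription factor that drives the chondrocyte programme, stood at 501 CPM over all Chad-high chondrocytes and at 4.55 CPM in the endothelial cells. The label says articular, which these genes cannot settle.

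Markers of several other cell types were absent or near the level of the endothelial cells. Those of fibroblasts, osteoblasts and vessel walls had higher medians than in the endothelial cells. The summed endothelial markers had a median of 0 CPM in the Chad-high chondrocytes (0 to 1720) against 2764 CPM in endothelial cells, and the B-lineage and erythroid markers also had a median of 0. Macrophage markers had a median of 1093 CPM (172 to 56891), near the 1149 CPM of the endothelial cells, and 4 of the 264 cells carried more than 1% of their UMIs in them. Of the granule genes of neutrophil precursors (Elane, Mpo, Ctsg, RatNP-3b and Np4), 1338 UMIs were counted, and 2 cells held 852 and 427 of them. The summed fibroblast markers had a median of 2846 CPM (738 to 41188), against 1941 CPM in the endothelial cells. Over the summed cells, Col3a1 was at 2087 CPM against 1612, Lum at 1018 against 1044, Dcn at 1446 against 492, Dpt at 217 against 26.5 and Pdgfra at 32.5 against 8.87. Col1a1, which the rule limits, was at 1867 CPM against 1803. The summed osteoblast markers, which include Col1a1 and Ibsp, had a median of 1610 CPM (187 to 121357) against 1240 in the endothelial cells. Ibsp reached 1000 CPM in 48 of the 264 cells. The summed mural (vessel wall) markers had a median of 107 CPM (0 to 1328) against 0. They include Cspg4, which is also on the aggrecan and link protein list, and 1 of the 6 had a UMI in at least 50% of the cells. Of 8 muscle genes found, 6 had no UMI at all, while the remaining genes were the fast skeletal troponins Tnni2 (459 CPM, a UMI in 18.6% of cells against 2.17% of endothelial cells) and Tnnt3 (23.9 CPM, 15.9% of cells against 2.96%).

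Several matrix genes of hyaline cartilage were found in nearly every Chad-high chondrocyte, at levels above the endothelial cells. Of the lists, with the genes of the rule included, 6 of 7 cartilage collagens, 4 of 7 aggrecan and link protein genes, 8 of 16 matrilins and glycoproteins and 6 of 12 leucine-rich proteoglycans found had a UMI in at least 50% of the cells. Sparc, a collagen-binding glycoprotein, took 7.03% of all UMIs of these cells and ranged from 5769 to 204659 CPM (median 66589), against 8778 CPM in the endothelial cells. Ecrg4, a small secreted precursor protein of cartilage, ranged from 251 to 109767 CPM and stood at 20177 CPM over the summed cells against 85.9 CPM. Comp, a pentameric protein that links collagen fibrils, stood at 3992 CPM against 53.1, and Hapln1, which ties aggrecan to hyaluronan, at 2414 CPM against 17.5. Acan itself was found in 84.1% of the cells and 14.4% of the endothelial cells, at 477 CPM against 14.4. Among the fibril collagens that the rule did not use, Col11a1 stood at 2175 CPM, Col11a2 at 589, Col9a2 at 419, Col9a1 at 275 and Col9a3 at 215 CPM. Col10a1, the collagen of hypertrophic cartilage, was at 10 CPM, and Aspn and Epyc, which encode leucine-rich proteoglycans, were at 0.

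**Figure D1:**
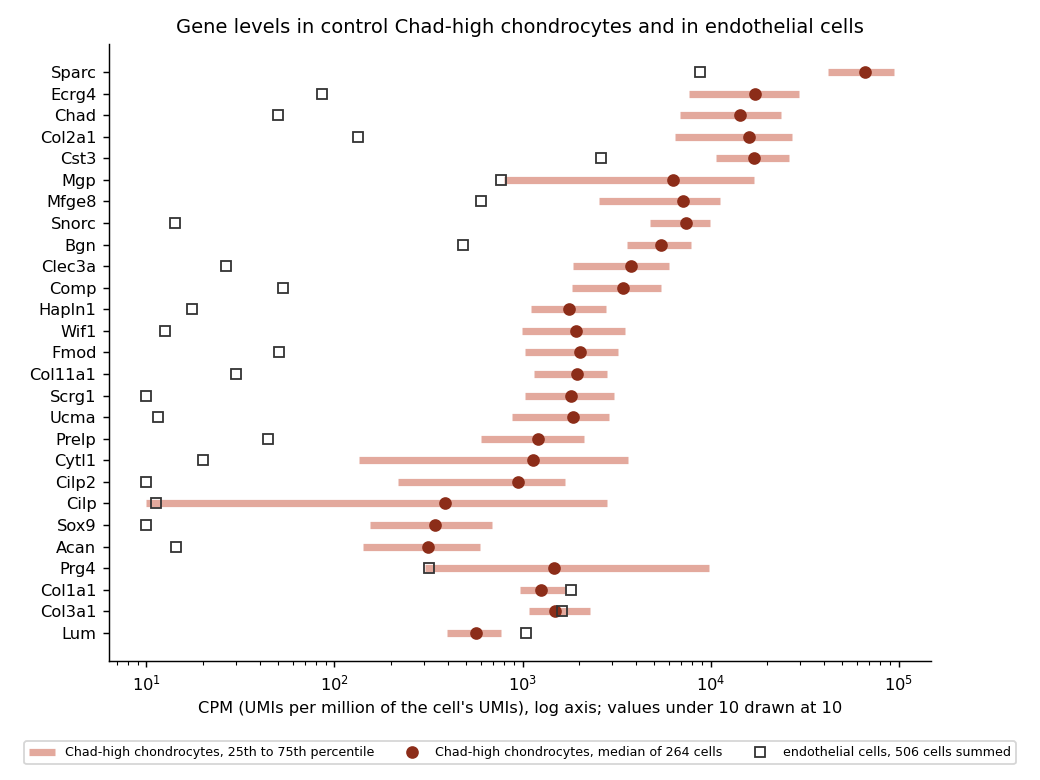
Level of selected genes in the 264 control Chad-high chondrocytes (circle, median over cells; bar, 25th to 75th percentile) and in the summed 506 endothelial cells of the same library (open square), in CPM on a log axis with values under 10 drawn at 10. Cartilage genes lie far to the right of their endothelial value, while Col1a1, Col3a1 and Lum lie at or near it.

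Of 18 genes of the Wnt list found, the secreted inhibitors Wif1 and Frzb had a UMI in at least 50% of the cells. Wif1, which binds Wnt proteins, was found in 98.1% of the cells and 12.2% of the endothelial cells and stood at 2386 CPM against 12.5 in the endothelial cells. Frzb, another Wnt-binding protein, stood at 1417 CPM against 6.36 but varied more, with a median of 449 CPM and at least 1000 CPM in 90 of 264 cells. The small secreted cartilage proteins Scrg1 (2144 CPM against 10) and Ucma (1999 CPM against 11.6) and the calcium-binding matrix protein Smoc2 (709 CPM against 2.05) were found at high levels as well. Cilp, which encodes cartilage intermediate layer protein and is also on the superficial zone list, was found in 64.4%, against 10.5% of the endothelial cells, and 117 cells had at least 1000 CPM of it.

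By the measure of spread used here, Prg4 ranked first among the genes. As a measure of spread, the variance of each gene's UMIs over cells was divided by its mean after thinning to 5000 UMIs per cell. This ratio was 622 for Prg4, 247 for Mgp, 216 for Ibsp, 168 for Fn1, 121 for Clu and 114 for Sparc, against a median of 1.18 over 5519 genes. At a given relative spread the ratio rises with the level of a gene, so it does not rank relative spread. The mean thinned UMIs per cell were 9.85 for Ibsp, 73.8 for Prg4 and 354 for Sparc. Mgp encodes matrix Gla protein, an inhibitor of calcification, Ibsp encodes bone sialoprotein, and Fn1 and Clu encode fibronectin and the extracellular chaperone clusterin. RatNP-3b and S100a8, neutrophil genes, and Apoe were also among the 15 most variable genes, and 93.2%, 36.3% and 25.9% of their UMIs lay in 1 cell. Prg4 ranged from 0 CPM in 10 cells to 357059 CPM, with a median of 1465. At least 1000 CPM were found in 145 cells and at least 100000 CPM in 11.

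To describe this variation, the 264 cells were ranked by Prg4 and the UMIs of the upper 88 were set against those of the lower 88. A gene was called higher or lower by a size rule: at least 100 UMIs over both sums, a ratio of at least 2-fold with its interval wholly beyond 1.5-fold, and still at least 2-fold without the cell richest in that gene on each side. By this rule 45 (2.62%) of 1717 genes measured were higher in the Prg4-rich cells and 61 (3.55%) were lower. Prg4 spanned 5935 to 357059 CPM in the upper cells (median 16889) and 0 to 493 CPM in the lower (median 210), where the median was that of the endothelial cells (205 CPM). Depth and macrophage RNA were close on both sides: the medians in the upper and lower cells were 7666 and 9217 UMIs, 3.82% and 3.95% mitochondrial UMIs, and 0.108% and 0.102% of UMIs in macrophage markers. The summed fibroblast markers had medians of 2421 and 3212 CPM, and 2 of 4 measured (Dpt and Dcn) were called lower in the Prg4-rich cells. The osteoblast markers had medians of 1250 and 2633 CPM, and 2 of 3 measured (Ibsp and Alpl) were called lower. The neutrophil-lineage markers had medians of 175 and 156 CPM and none of 6 was called. The part of these markers in the results below was not tested.

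Mgp, of the cartilage glycoprotein list, and Abi3bp and Clu, of the superficial zone list, accompanied Prg4. Mgp ranged from 503 to 202761 CPM (median 14994) in the Prg4-rich cells and from 0 to 89145 CPM (median 935) in the Prg4-poor cells, which overlapped, and its summed level was 33741 CPM against 7094 (4.76-fold, 4.63 to 4.89). Abi3bp, an extracellular protein of the superficial zone, had a median of 416 CPM against 0 and was 7.72-fold higher (5.89 to 10.3). Clu was 2.68-fold higher (2.51 to 2.85), although its summed level was highest in the 88 cells between the 2 sides, at 7042 CPM against 4365 in the upper and 1630 in the lower cells. Abi3bp and Clu were the called genes among the 4 superficial zone genes measured of 12 listed, Prg4 itself being left out, and none was lower.

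Signalling lists had calls in both directions. Of 13 TGF-beta and BMP genes 3 were higher and 2 lower, of 8 FGF, IGF and PTH genes 2 were higher and 1 lower, and of 8 cytokine and NF-kB genes 3 were higher and 1 lower. Among these calls, those of Chrdl2 (ratio 1.79), Id2 (0.600), Tnfaip6 (1.62) and Cxcl1 (0.722) were lost with the cells split at the median. The call of Inhba was lost with TMM factors. Igfbp5, a binding protein of insulin-like growth factors, stood at 850 CPM against 51.8 (16.4-fold, 12.2 to 22.7), and Igf2 at 301 CPM against 63.0 (4.78-fold, 3.55 to 6.52). Tgfbi, a matrix protein induced by TGF-beta, was 4.11-fold higher (3.47 to 4.89), and the membrane protein Itm2a 3.96-fold (3.38 to 4.66), with a median of 722 CPM against 165. Lcn2, an iron-sequestering protein of innate immunity, was 6.01-fold higher (4.81 to 7.58) and Chi3l1, a chitinase-like glycoprotein, 2.46-fold (2.30 to 2.63), but Chi3l1 had nearly the same median on both sides, 110 and 103 CPM. Serpina1 (14.3-fold, 9.80 to 21.7), Htra4 (16.2-fold, 8.51 to 34.4), Myoc (3.87-fold), Sema3d (3.99-fold) and Thbs1 (4.31-fold) also passed the size rule.

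**Figure D2:**
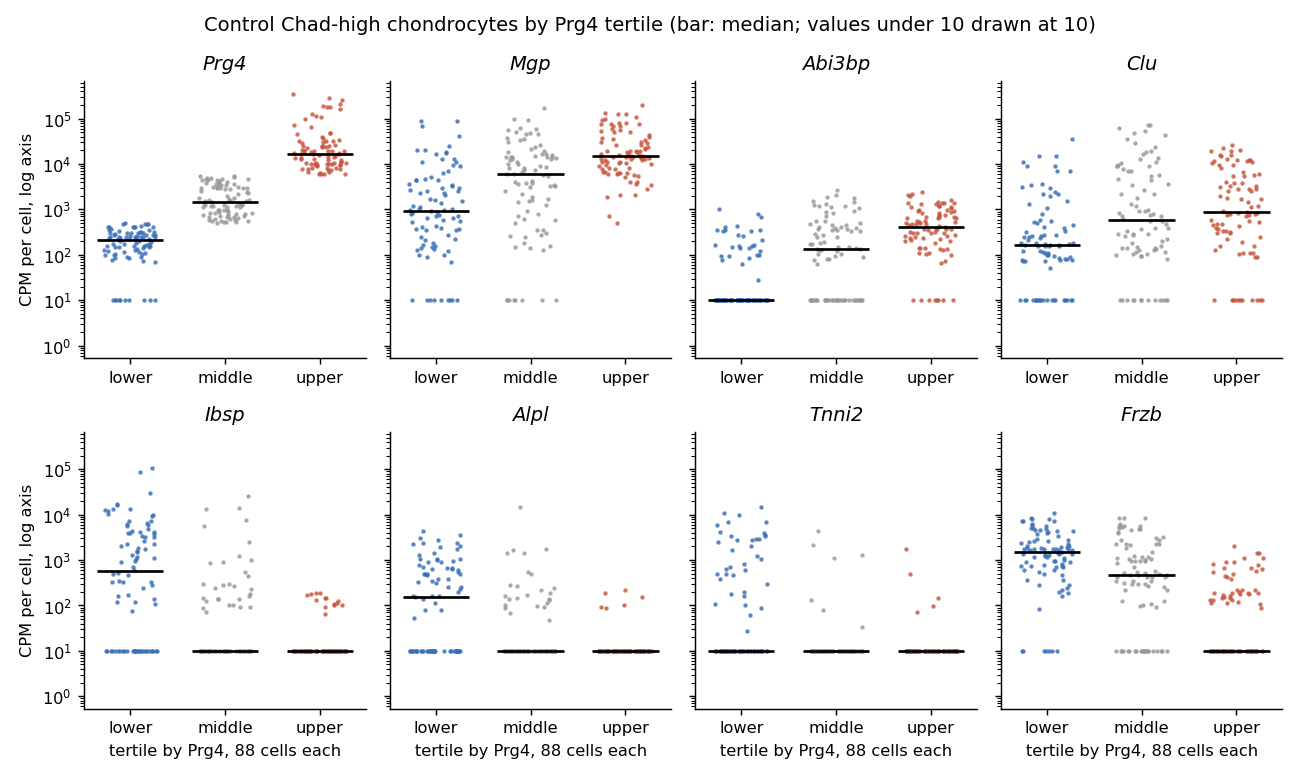
CPM per cell (log axis, values under 10 drawn at 10) of 8 genes in the 88 control Chad-high chondrocytes of the lower, middle and upper Prg4 tertile, with the median as a bar. Mgp and Abi3bp have higher medians toward the upper tertile, Clu is widely spread in each tertile, and Ibsp, Alpl, Tnni2 and Frzb are concentrated in the lower tertile.

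The Prg4-poor cells carried genes of mineral formation. Ibsp, a matrix protein of bone and calcified cartilage that binds hydroxyapatite, stood at 6856 CPM in the summed lower cells, 765 CPM in the middle cells and 18.98 CPM in the upper cells. It was 361-fold lower in the Prg4-rich cells (215 to 661). A single cell held 39.4% of all Ibsp UMIs, and without the richest cell on each side the fold was 224. In single cells Ibsp reached 109007 CPM in the lower group (median 572) and no more than 193 CPM in the upper group (median 0), so that 40 of 88 lower cells, 8 middle cells and 0 upper cells had at least 1000 CPM. The level in the upper cells, from 14 UMIs, was near the 13.75 CPM of the endothelial cells.

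The mineral enzymes followed the same order. Alpl, the phosphatase that frees phosphate for mineral, stood at 549, 201 and 10.9 CPM in the lower, middle and upper cells and was 50.6-fold lower in the upper (25.5 to 118), and Phospho1, a phosphatase of matrix vesicles, at 231, 81.9 and 5.42 CPM (42.5-fold, 16.4 to 158). Pth1r, the parathyroid hormone receptor, was 8.75-fold lower (5.53 to 14.6), Spp1, osteopontin, 3.36-fold (2.81 to 4.05) and Mef2c, a transcription factor of chondrocyte hypertrophy, 2.23-fold (1.54 to 3.27). With the cells split at the median, the Spp1 ratio of upper over lower cells was 0.598 and it was not called, and with Prg4 left out of the totals Mef2c was not called. These were 6 of the 8 genes measured of 15 listed for hypertrophy and mineralisation, and their 8 log2 ratios had a median of -2.44 against 0.05 over all genes measured. A listed gene can reach the minimum of 100 UMIs through 1 side alone and must then differ, so such counts describe the cells and test nothing.

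The remaining genes of the Prg4-poor cells were of other kinds. Tnni2 stood at 1150, 91.8 and 28.5 CPM in the lower, middle and upper cells and was 40.4-fold lower in the upper (26.3 to 65.5). Cells with at least 1000 CPM of Tnni2 numbered 20, 4 and 1, and 18 of these 25 cells also had at least 1000 CPM of Ibsp. Lox, which cross-links collagen, was 14.8-fold lower in the Prg4-rich cells (11.7 to 19.02), PCOLCE2, an enhancer of procollagen processing, 49.5-fold (26.8 to 104), and elastin (Eln) 6.46-fold (4.82 to 8.83). Frzb was 10.8-fold lower (9.19 to 12.7), with a median of 0 CPM in the upper and 1475 CPM in the lower cells, and Grem1, a BMP antagonist, 6.07-fold (4.96 to 7.50). Cnmd, chondromodulin, a chondrocyte protein that keeps vessels out of cartilage, was 5.63-fold lower (4.40 to 7.29). These genes did not all lie in the same cells. Of 43 cells with at least 1000 CPM of Grem1, 35 had that level of Frzb and 4 that of Ibsp. For the 17 such cells of Cnmd the numbers were 14 and 2. Of the 90 such cells of Frzb, 26 had at least 1000 CPM of Ibsp and 18 of Tnni2. Cells rich in Prg4 and cells rich in Ibsp were almost separate: 145 cells had at least 1000 CPM of Prg4 and 48 had at least 1000 CPM of Ibsp, and 2 cells had both.

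**Figure D3:**
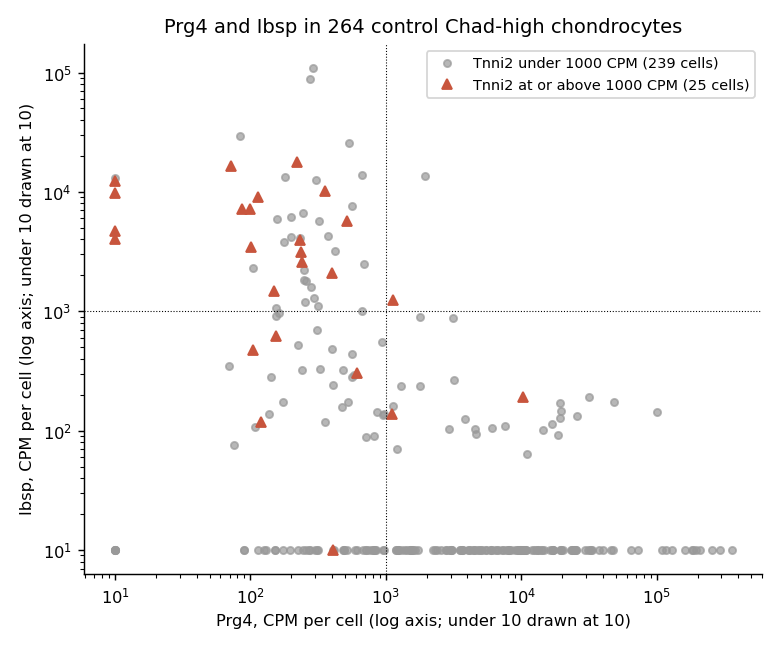
Prg4 against Ibsp in each of the 264 control Chad-high chondrocytes, in CPM on log axes with values under 10 drawn at 10 and dotted lines at 1000 CPM. The upper right field, with both genes above the lines, holds 2 cells, and the 25 cells with at least 1000 CPM of Tnni2 (triangles) lie mostly at low Prg4.

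Heat-shock chaperones were higher in the Prg4-poor cells too. Hspb1, a small heat-shock protein, ranged up to 46454 CPM (median 3755) in the lower and up to 18213 CPM (median 806) in the upper cells and was 2.83-fold lower in the upper (2.69 to 2.98). Dnajb1, a partner of Hsp70, was 3.97-fold lower (3.27 to 4.84), Cryab, alpha-B crystallin, 8.68-fold (6.19 to 12.5) and the mitochondrial chaperonin Hspd1 2.38-fold (1.81 to 3.17), which was not called with the cells split at the median (ratio 0.518). These were 4 of the 12 chaperone genes measured, of 15 listed. None of the 20 immediate-early genes measured was called in either direction, and Fos stood at 4379 CPM in the lower and 5067 CPM in the upper cells.

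Promoters of genes that were higher together in the Prg4-poor cells are printed here, as the 250 bases before the start of each gene in RefSeq's table for build GRCr8, read 5′ to 3′ on the gene's strand, which is the minus strand for each of them. This build is not the one of the counts and served for the sequences alone. The chaperone promoters come first, with each match to GAANNTTC, the core of the heat-shock element, in capitals. Hspb1 lies at chr12:26432302-26432551 with matches beginning 129 and 109 bases before the start, Dnajb1 at chr19:41431142-41431391 with a match at 11 bases, and Hspd1 at chr9:64084038-64084287 with a match at 237 bases. Of the mineralisation genes, Ibsp lies at chr14:5757243-5757492 and Spp1 at chr14:5619805-5620054, with TATAAA in capitals (for Ibsp on the other strand, so that it reads TTTATA) at 39 and 204 bases. Alpl, Phospho1 and Pth1r, called in the same direction, had no TATAAA in this stretch and are not printed.
Hspb1: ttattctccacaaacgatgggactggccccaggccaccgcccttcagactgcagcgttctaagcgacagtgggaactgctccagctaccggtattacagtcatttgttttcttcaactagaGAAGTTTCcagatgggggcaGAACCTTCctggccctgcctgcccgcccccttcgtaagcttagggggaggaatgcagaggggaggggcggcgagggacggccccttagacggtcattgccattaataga
Dnajb1: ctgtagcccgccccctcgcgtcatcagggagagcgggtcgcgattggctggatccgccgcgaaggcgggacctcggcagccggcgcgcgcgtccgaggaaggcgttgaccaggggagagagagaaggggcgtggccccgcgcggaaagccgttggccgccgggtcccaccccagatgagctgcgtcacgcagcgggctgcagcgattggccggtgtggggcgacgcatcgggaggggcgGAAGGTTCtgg
Hspd1: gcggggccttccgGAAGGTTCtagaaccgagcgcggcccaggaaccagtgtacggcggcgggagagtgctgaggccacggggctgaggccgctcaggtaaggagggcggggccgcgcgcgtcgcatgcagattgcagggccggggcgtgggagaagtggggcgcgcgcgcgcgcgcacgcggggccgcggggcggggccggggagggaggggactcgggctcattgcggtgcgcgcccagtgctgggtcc
Ibsp: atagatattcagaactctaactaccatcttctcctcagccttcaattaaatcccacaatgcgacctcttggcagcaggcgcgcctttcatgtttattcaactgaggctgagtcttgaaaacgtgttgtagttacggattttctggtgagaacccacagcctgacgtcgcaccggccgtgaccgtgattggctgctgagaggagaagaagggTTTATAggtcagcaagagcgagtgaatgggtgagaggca
Spp1: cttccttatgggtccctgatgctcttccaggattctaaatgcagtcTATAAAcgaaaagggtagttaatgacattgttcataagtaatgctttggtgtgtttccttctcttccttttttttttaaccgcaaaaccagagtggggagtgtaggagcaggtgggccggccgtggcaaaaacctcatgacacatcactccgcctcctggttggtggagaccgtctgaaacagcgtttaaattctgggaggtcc

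Both motifs were searched on both strands in these 250 bases, and a match describes letters only. GAANNTTC occurred in 9 of the 11 listed chaperone promoters found in the table (Bag3, Dnaja1, Dnajb1, Hspa8, Hspb1, Hspb8, Hspd1, Hspe1 and Hsph1), in 1 of 17 immediate-early promoters and in 0 of 11 mineralisation promoters, against 7.23% of all 33469 promoters. Hspd1 and Hspe1 are neighbours that start from a shared stretch of DNA. The inverted form TTCNNGAA, which can overlap it, occurred in 4 of the 11 chaperone promoters and in 7.48% of all. TATAAA occurred in 5 of 11 mineralisation promoters (Bglap, Col10a1, Ibsp, Mmp13 and Spp1) against 12.9% of all. Of these, Bglap, Col10a1 and Mmp13 were not called in the Prg4 ranking. TGTGGT, a core of sites for Runx factors, which direct cartilage hypertrophy and bone formation, occurred in 3 of 11 (Bglap, Mmp13 and Runx2) against 14.5% of all.

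Several core chondrocyte genes differed by less than 2-fold between the Prg4-rich and Prg4-poor cells. Snorc stood at 8034 CPM in the lower and 6773 CPM in the upper cells, Clec3a at 4520 and 3550, Cytl1 at 2445 and 3270 and Comp at 4313 and 2953, and none reached 2-fold. Sparc stood at 91969 and 55537 CPM. None of the 6 cartilage collagens and none of the 5 aggrecan and link protein genes measured passed the size rule. Summed per cell, however, the cartilage collagens had a median of 26439 CPM in the lower and 12648 CPM in the upper cells. Of the 9 small chondrocyte proteins measured, Itm2a was called higher and Cnmd lower in the Prg4-rich cells, as given above. Cst3, the protease inhibitor cystatin C, was 2.40-fold lower in the Prg4-rich cells (2.35 to 2.46) and the proteoglycan decorin (Dcn) 2.86-fold (2.60 to 3.16). Neither was called with the cells split at the median, and with all deposited barcodes the Dcn ratio of upper over lower cells was 1.01 in place of 0.349.

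Ranking the cells by stress genes gave another pattern. The score was the summed CPM of the immediate-early and heat-shock lists, and the upper 88 cells had 38007 to 119513 CPM of it (median 57615) and the lower 88 had 1902 to 18320 (median 12308). Across the lower, middle and upper cells Fos stood at 994, 3252 and 8370 CPM and Hspb1 at 961, 3388 and 10657 CPM, values that chose the groups. Of 1692 genes measured outside the score, 56 (3.31%) were higher and 19 (1.12%) lower in the stress-high cells. The medians were 8314 and 7732 UMIs and 3.36% and 4.25% mitochondrial UMIs in the stress-high and stress-low cells, and Prg4 had a median of 884 against 2401 CPM.

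Most of the named higher genes are further rapid-response regulators. Gadd45b, a stress sensor, ranged up to 10984 CPM (median 1236) in the stress-high cells and up to 3637 CPM (median 345) in the stress-low cells and was 3.17-fold higher (2.86 to 3.52). Ddit3, a transcription factor of the unfolded protein response, was 3.18-fold higher (2.62 to 3.89). The Notch and BMP targets Hes1 (4.76-fold, 3.77 to 6.06), Id1 (2.88-fold, 2.47 to 3.36) and Id3 (3.86-fold, 3.17 to 4.72) and the interferon-response factor Irf1 (5.39-fold, 3.29 to 9.32) were higher as well. Metallothioneins Mt1 (2.29-fold, 1.91 to 2.76) and Mt2A (2.09-fold, 1.90 to 2.31) and Vegfa (2.78-fold, 2.04 to 3.84) were higher, and the calls of both metallothioneins were lost with the cells split at the median (ratios 1.65 and 1.53). Clu was 2.34-fold higher in the summed cells (2.23 to 2.47), but 32 stress-high and 28 stress-low cells had at least 1000 CPM of it. Angptl7, a secreted angiopoietin-like protein, had 173 UMIs against 3 (56.8-fold, 19.1 to 278), found in 13.6% of the stress-high cells. Of the lists, 3 of 14 redox genes, 2 of 13 glycolysis and hypoxia genes and 2 of 13 TGF-beta and BMP genes were higher and none was lower. The calls of the remaining redox gene, Txnip, and of the glycolysis and hypoxia gene Ddit4 were also lost with the median split (ratios 1.76 and 1.57).

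Matrix genes stood at similar levels at both ends of the stress ranking. None of the 6 cartilage collagens passed the size rule, Col2a1 stood at 21676 CPM in the stress-low and 18493 CPM in the stress-high cells, Snorc at 7111 and 6988 CPM and Sparc at 74178 and 71113 CPM. Prg4 was 3.31-fold lower in the stress-high cells (3.18 to 3.43; not called with the cells split at the median, ratio 0.618), and the cell cycle regulator Ccnd1 3.58-fold (2.40 to 5.49) and Medag 4.00-fold (3.15 to 5.12). Granule genes such as Elane (2 UMIs against 187) were also called lower, and nearly all granule UMIs lay in the 2 cells described above. The macrophage genes Tyrobp and Fcer1g were called lower, but not without the 4 cells rich in macrophage RNA.

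The third ranking used the summed cartilage collagens, of which Col2a1, a gene of the rule, made up most. The upper 88 cells had 26698 to 138254 CPM of them (median 39434) and the lower 88 had 1512 to 11617 (median 6793). Of 1719 genes measured outside the score, 36 (2.09%) were higher in the collagen-rich cells and 68 (3.96%) were lower. With TMM factors, which assume that most genes do not differ, the median log2 ratio over all genes was 0.04 in place of -0.15, and the share of higher among the called genes was 47.6% in place of 34.6%. The collagen-rich cells had a median of 8918 UMIs and 496 CPM of Prg4, and the collagen-poor cells 7529 UMIs and 4450 CPM.

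Mineral genes and single matrix genes were higher in the collagen-rich cells. Of 11 fibrous matrix genes measured 2 were higher (Sparc and Eln) and 1 lower (Thbs2), of 10 matrilins and glycoproteins 1 was higher (Matn3) and 1 lower (Mgp), and none of 7 leucine-rich proteoglycans and 5 aggrecan and link protein genes was called. Sparc ranged from 24659 to 204659 CPM (median 98359) in the collagen-rich and from 5769 to 137371 CPM (median 38967) in the collagen-poor cells, and was 2.54-fold higher (2.50 to 2.57), or 1.90-fold with the cells split at the median, where it was not called. Matn3, a matrilin of cartilage, was 5.47-fold higher (3.20 to 9.96), Eln 5.18-fold (3.82 to 7.14), and Ccnd1 6.84-fold (4.32 to 11.4). Ibsp was 32.4-fold higher (27.8 to 38.0; 65.0-fold without the richest cell on each side), Alpl 5.70-fold (4.45 to 7.41), Spp1 4.42-fold (3.65 to 5.39), Phospho1 4.25-fold (2.87 to 6.49) and Pth1r 3.00-fold (2.21 to 4.13; not called with the cells split at the median), which made 5 of the 8 mineralisation genes measured. Tnni2 was 47.6-fold higher (29.1 to 83.6). Acan (621 against 358 CPM), Hapln1 (2942 against 1936 CPM) and Comp (4021 against 3757 CPM) did not reach 2-fold.

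Some superficial zone genes, Mgp and some cytokine and NF-kB genes were lower in the collagen-rich cells. Clu was 7.36-fold lower (6.87 to 7.89), Prg4 3.69-fold (3.57 to 3.80), Abi3bp 3.00-fold (2.47 to 3.67) and Mgp 2.42-fold (2.36 to 2.48), and Clu, Prg4 and Abi3bp were 3 of the 5 superficial zone genes measured. Of 8 cytokine and NF-kB genes measured, 4 were lower: the chemokine Ccl2 (5.71-fold, 3.94 to 8.51), Lcn2 (2.67-fold, 2.18 to 3.29), Chi3l1 (2.33-fold, 2.17 to 2.50) and Nfkbia (2.00-fold, 1.75 to 2.28), and the call of Nfkbia was lost with TMM factors, without the cells rich in macrophage RNA and with the collagens left out of the totals. The calls of Lcn2 and Chi3l1 were lost with the cells split at the median (ratios 0.524 and 0.605). Igfbp5 was 9.13-fold lower (7.33 to 11.5). Of the 4 cells rich in macrophage RNA, 3 were in the collagen-poor group and 1 in the middle. Cd74, Lyz2, Tyrobp and Fcer1g, 4 of 5 macrophage markers measured, and Apoe were called lower with these cells and were not called without them.

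**Figure D4:**
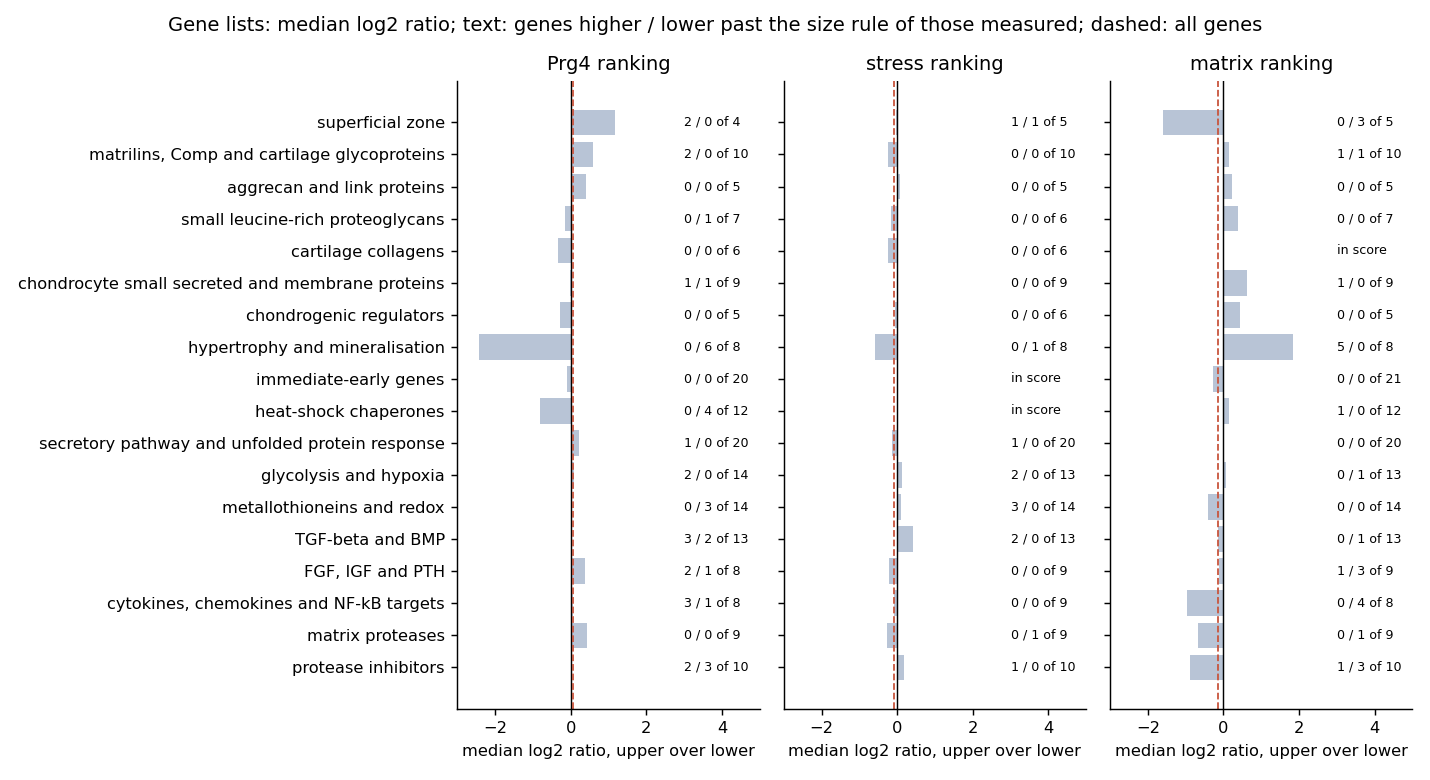
Median log2 ratio of the measured genes of gene lists, upper over lower tertile, for the rankings by Prg4, stress genes and cartilage collagens (bars), with the median of all genes measured as a dashed line and the genes higher and lower past the size rule printed beside each bar. The superficial zone and the hypertrophy and mineralisation lists lie on opposite sides in the Prg4 and matrix rankings.

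The rankings overlapped without being the same. Of the 88 Prg4-poor cells, 44 were among the collagen-rich and 13 among the collagen-poor, and of the 88 Prg4-rich cells 18 were collagen-rich and 42 collagen-poor. For stress the Prg4-poor cells divided into 17 low, 35 middle and 36 high, and the Prg4-rich cells into 32, 32 and 24. Over the 264 cells, which share a library and whose CPM of a gene lowers that of all others, Spearman's rho was -0.32 between Prg4 and the cartilage collagens, 0.55 between Prg4 and Mgp, -0.49 between Prg4 and Ibsp, 0.64 between the collagens and Sparc, and 0.46 between the immediate-early and the heat-shock genes. These are descriptions without a test.

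The control library also held 62 cells with at least 1000 CPM of Col2a1 and at least 10000 CPM of Col1a1. The Col1a1 limit alone kept out 11 of them, and 51 failed on Chad too, so these cells differ from the Chad-high chondrocytes in both genes. They were deeper, with a median of 15315 UMIs. Of 3470 genes measured, leaving out Col2a1, Chad and Col1a1, 257 (7.41%) were higher in the Chad-high chondrocytes and 285 (8.21%) were lower. Small secreted chondrocyte proteins were higher: Cytl1 stood at 2598 CPM against 224 (11.6-fold, 10.2 to 13.2), Clec3a at 4149 against 1226 (3.38-fold, 3.20 to 3.58), Ucma at 1999 against 718 (2.78-fold, 2.58 to 3.00) and Snorc at 7119 against 3008 (2.37-fold, 2.28 to 2.46). They were among 6 of 9 such genes measured that were higher, with none lower.

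Secreted antagonists and glycoproteins also set the Chad-high chondrocytes apart from the Col1a1-high cells. Wif1 was 8.69-fold higher (7.75 to 9.78), Frzb 4.72-fold (4.22 to 5.29), Grem1 17.0-fold (12.6 to 23.6) and Sfrp5, which had 2 UMIs in the Col1a1-high cells, 66.4-fold (18.2 to 551). Gdf10, a BMP-family protein, had 156 UMIs against 0 and was at least 23.9-fold higher, with 3 counts as the floor of the summed cells. Cilp was 10.9-fold higher (9.42 to 12.7), Ecrg4 5.14-fold (4.98 to 5.30), Mgp 3.80-fold (3.69 to 3.91) and Prg4 6.18-fold (5.92 to 6.46), and Agt, angiotensinogen, 27.7-fold (18.2 to 44.3). Macrophage markers were higher in 4 of 7 measured, and in 0 of 5 without the cells rich in macrophage RNA.

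Lists with several genes lower in the Chad-high chondrocytes included mineralisation (8 of 11 measured) and fibrous matrix (6 of 10, with Eln higher). Cartilage collagens (3 of 6) and aggrecan and link proteins (3 of 6, with Sdc4 higher) were among them too. So were pericellular collagens (3 of 4), osteoblast markers (3 of 3), matrix proteases (3 of 9) and secretory pathway genes (5 of 21, with 3 higher). These lists hold few of the 285 lower genes. Of 11 mineralisation genes, 8 were lower in the Chad-high chondrocytes, among them Alpl (7.68-fold, 7.04 to 8.39), Ibsp (3.06-fold, 2.96 to 3.15), Bglap, osteocalcin (29.0-fold, 18.4 to 48.3), Panx3 (22.3-fold, 18.3 to 27.5) and Mmp13, a collagenase (9.86-fold, 8.69 to 11.2). Ankh and Enpp1, which supply the mineral inhibitor pyrophosphate, were the 2 of that list that were higher. Col3a1 was 3.84-fold lower (3.71 to 3.98) and Col12a1 16.5-fold (13.9 to 19.7). The minor fibril collagens Col11a1 (3.25-fold, 3.14 to 3.37) and Col9a1 (4.55-fold, 4.15 to 4.998), Hapln1 (2.59-fold, 2.50 to 2.68) and Acan (477 against 1079 CPM) were lower too, while Comp, at 3992 CPM, was not called.

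As Prg4 is shared with cells other than chondrocytes, the Chad-high chondrocytes were also set against 207 control cells with at least 10000 CPM of Prg4 and under 100 CPM of Col2a1 (median 13224 UMIs). Of 5099 genes measured, 436 (8.55%) were higher in the chondrocytes and 980 (19.2%) were lower. The median log2 ratio over all genes was -0.44, and -0.12 with TMM factors, and the share of higher among the called genes was 30.8%, and 52.6% with TMM factors. All 5 cartilage collagens, all 9 small chondrocyte proteins and 12 of 15 cartilage glycoproteins measured were higher. The Col2a1 limits that chose the cells on each side favour higher levels in the chondrocytes of genes that go with Col2a1. A gene can also reach the minimum of 100 UMIs through the chondrocytes alone, so these counts describe the cells and test nothing. Snorc had 17315 UMIs against 29 (757-fold, 527 to 1131), Clec3a was 194-fold higher (152 to 251), Col11a1 24.6-fold (21.8 to 27.9), Acan stood at 477 CPM against 24.0, and Sox9 was 25.8-fold higher (19.9 to 34.0). Mgp (10.1-fold, 9.80 to 10.4), Clu (4.90-fold, 4.70 to 5.11) and Abi3bp (4.36-fold, 3.75 to 5.08), which accompanied Prg4 within the chondrocytes, were higher than in these Prg4-high cells.

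Immediate-early genes were higher in the chondrocytes in 24 of 24 measured, for example Fos (5.60-fold, 5.35 to 5.86) and Atf3 (6.91-fold, 6.44 to 7.43), and heat-shock genes in 6 of 12. The calls of Klf6 and Myc were lost with the Prg4 limit of the comparison cells doubled (ratios 1.60 and 1.92). That of Ier5 was lost with all deposited barcodes (ratio 1.99). Matrix proteases were lower in 13 of 14, among them the stromelysin Mmp3 (14.3-fold, 13.7 to 15.0), Mmp2 (5.12-fold, 4.72 to 5.56) and the aggrecanase Adamts5 (12.1-fold, 7.50 to 20.7), and fibroblast markers in 5 of 6, such as Dcn (9.99-fold, 9.65 to 10.3) and Lum (13.7-fold, 13.2 to 14.3). Of the proteases, the call of Ctsd was lost with TMM factors (ratio 0.611) and that of Mmp19 with the doubled limit (0.165). Among the 12 genes with the largest fold lower, Clic5 had 9 UMIs against 1964 (172-fold, 90.4 to 377) and Cd55, a complement regulator, was 42.5-fold lower (29.1 to 64.7). Of 8 superficial zone genes measured, 4 were higher (Abi3bp, Erg, Clu and Cilp) and 3 lower (Cd44, Creb5 and Vcam1), among which the adhesion molecule Vcam1 was 31.0-fold lower (18.96 to 54.6). Igfbp5, higher in Prg4-rich chondrocytes, stood at 418 CPM in the chondrocytes and 3051 CPM in the Prg4-high cells without Col2a1 (7.30-fold lower, 6.85 to 7.80).

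**Figure D5:**
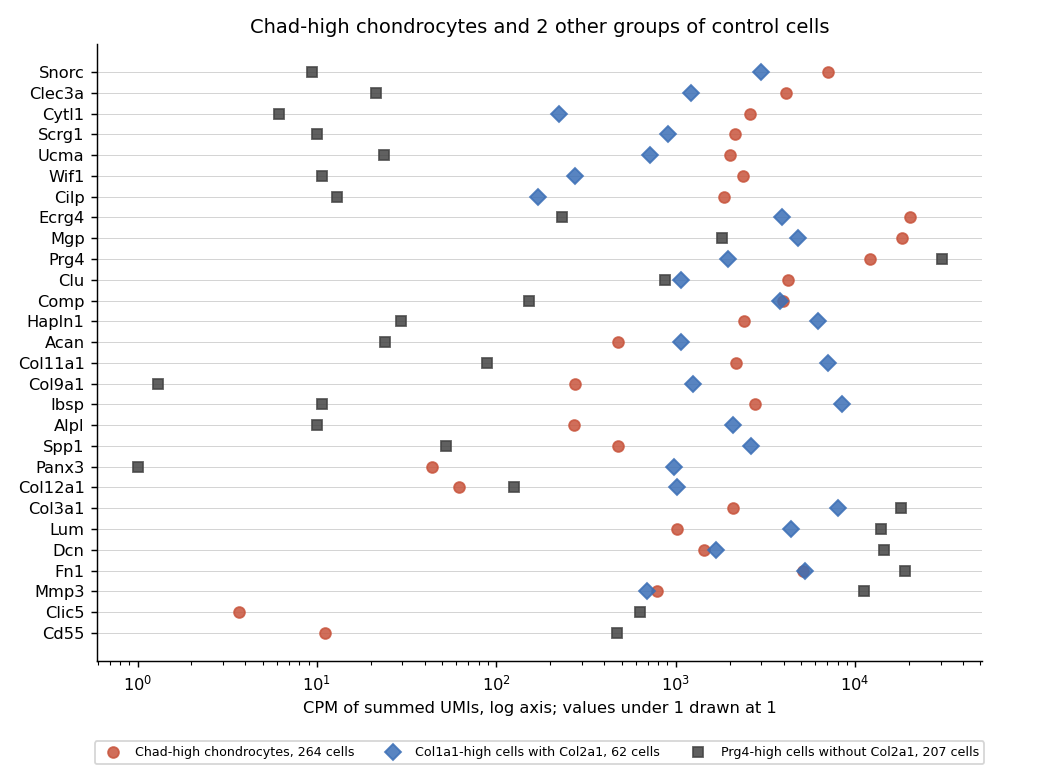
CPM of summed UMIs (log axis, values under 1 drawn at 1) of selected genes in the 264 control Chad-high chondrocytes (circles), 62 Col1a1-high cells with Col2a1 (diamonds) and 207 Prg4-high cells without Col2a1 (squares). Snorc, Clec3a, Cytl1, Wif1 and Cilp are highest in the Chad-high chondrocytes, mineral genes and minor collagens in the Col1a1-high cells, and Lum, Dcn, Fn1 and Mmp3 in the Prg4-high cells.

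In the CIA library, 44 cells reached the Col2a1 limit and 10 of them, holding 87666 UMIs in all (median 7752 per cell), were Chad-high chondrocytes. Of the others, 12 failed on Chad alone and 22 on Chad and Col1a1. In the 10 cells Col2a1 ranged from 8162 to 49165 CPM (median 20378) and Chad from 1371 to 27145 CPM (median 7782). Snorc (2616 to 11907 CPM), Clec3a (218 to 4897), Ucma (1090 to 9439) and Acan (141 to 5232) were found in 10 of 10 cells, Cytl1 in 5 and Sox9 in 7. Prg4 was found in 9 (0 to 7672 CPM, median 2499), Ibsp and Cilp in 4 each, and Tnni2 and Agt in 0 of 10 cells, which allows a share of cells with a UMI of up to 30% (3 counts of 10). Mmp3 ranged from 141 to 18896 CPM (median 463). With 10 cells from 1 library, no level was compared with the control cells.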

How the data were processed

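Single-cell RNA sequencing of cartilage of Lewis rats gave 1 control and 1 CIA library. The matrices deposited by the authors hold raw UMI counts per gene and cell (unit counts), with 19726 and 19250 genes listed. A warmed enzyme had freed the cells and a Chromium 3' kit had made the libraries, per the labels' protocols. The deposited barcodes have 24 bases, which is not the barcode form of that kit, so the platform is uncertain. Per the submitters' processing notes the build was mRatBN7.2, while the aligner, the counter and the strand were not given in the sources used here. Depth was 76927821 (control) and 105752977 (CIA) UMIs, in 5456 and 8622 barcodes.

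Barcodes needed 200 genes or more and mitochondrial UMIs of 20% or less, which left out 45 and 47 barcodes. Scrublet in scanpy 1.11.5 called 66 and 175 barcodes doublets, and these were left out, 5 of them among the 269 control barcodes that met the rule. Raw counts were summed over cells and scaled by their totals (CPM). Ratios carry exact conditional intervals and shares Clopper-Pearson intervals, at 95%, for counting error only. Score genes were left out of their own ranking, and the genes of the rule and of the comparison cells out of the other comparisons. The TMM alternative used edgeR 4.0.16 (R 4.3.3), and the rest used Python 3.11.15, numpy 2.4.6, scipy 1.17.1, pandas 2.3.3 and matplotlib 3.10.9. The scripts were tested on simulated data.

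The endothelial reference was planned as cells with Pecam1 and Cdh5. Pecam1 was not among the symbols used here, so cells with at least 2 UMIs each of Cdh5 and Egfl7 were taken, a choice made after seeing the files. Cells with at least 1000 CPM of Col2a1 were left out of this reference. Of 412 genes in 34 lists 393 were found, 6 of them by a RefSeq synonym (Ecrg4, Hspg2, Ccn1, Ccn2, Ccn3 and Cd79a). Named genes were the 12 with the largest fold per comparison and direction, all list genes, the 15 most variable genes and the 25 with the highest CPM. The chosen cells, the lists and the comparisons were set with earlier results of these data known. Alternatives changed the scaling, the minimum of UMIs, the cell filters, the split and the limits.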

Additional observations from a re-analysis of the deposited data

How the results depend on the processing

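Without a minimum of UMIs, where more genes were tested, the genes called higher and lower numbered 133 and 125 for Prg4, 105 and 87 for stress, 80 and 224 for the collagens, 444 and 533 against the Col1a1-high cells, and 880 and 1492 against the Prg4-high cells without Col2a1. Split at the median, the stress ranking had 29 higher genes in place of 56, and with all deposited barcodes it had 36 lower genes in place of 19. With TMM factors 550 genes in place of 980 were lower than in the Prg4-high cells without Col2a1. The cause was not tested in these 3 cases. The other 64 of 77 recomputed values stayed within 1.5 times of the reported one. The genes behind a count changed more: with the cells split at the median, 28 of the 45 higher and 36 of the 61 lower genes of the Prg4 ranking were still called, 23 of 56 and 7 of 19 of the stress ranking, and 21 of 36 and 48 of 68 of the collagen ranking. Among them the share of Chad-high chondrocytes was 4.60 to 5.42% of control cells and 0.0952 to 0.127% of CIA cells under other limits and filters. Leaving out cells above 100000 CPM of Prg4, an alternative chosen after seeing the data, gave 61 higher genes (43 of the 45) and 55 lower (54 of the 61). Of 461 calls of named genes, 29 were lost with TMM factors, 27 without the cells rich in macrophage RNA, 18 with all deposited barcodes and 0 without a minimum of UMIs. The median split lost 40 of 135 and the doubled limit of the comparison cells 19 of 326. The ratio of 4 crossed 1: Dcn (Prg4 ranking, 0.349 to 1.01 with all deposited barcodes), Slpi (Prg4 ranking, 0.350 to 2.36, median split), Cryab (collagen ranking, 3.43 to 0.824, median split) and Ccl7 (against the Prg4-high cells, 0.273 to 1.17, doubled limit). Calls near 2-fold were lost for some, such as Inhba, Epas1 and Timp1 (Prg4 ranking, TMM factors) and Mt1 and Hmox1 (Prg4 ranking, Prg4 left out of the totals). With 1 library per group, no library could be left out. No paired analysis was possible because each group has 1 library. Genes under 100 UMIs over both sums were not called, so depth limits what could be seen to genes of moderate level.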
